A study of Mus musculus with 48 samples.

Results

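Among the 47480 gene symbols in the count tables, 10 genes of the circadian clock and its output were followed through cyclic stretching of mouse muscle cells. They were taken by name, as genes present in the tables of both stages, with earlier results of these data known. The members were Per1, Per2, Per3, Cry1, Cry2, Nr1d1, Nr1d2, Dbp, Bhlhe40 and Nfil3, and all 10 were tested in every comparison. C2C12 is an established mouse myoblast line that fuses into multinucleated cells when serum is reduced. RNA was sequenced from 48 libraries in 12 groups of 4, covering undifferentiated myoblasts and differentiated cells, each either stretched or left unstretched and each collected after 1, 3 or 6 h.

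All groups came from this line and were plated on collagen-coated plates with a flexible bottom. The stretched plates were deformed cyclically and equally in all directions by a Flexcell device, and the non-stretched plates had the same handling without the deformation. Each time point had non-stretched cells of its own. Differentiated cells had been kept in horse serum before stretching. Cultures of this line stand in for muscle fibres without nerves or vessels. Myoblast replicates 7 and 8 came from 1 experiment, B27, and replicates 9 and 10 from another, B31, and the differentiated replicates 7 and 8 came from B25 and replicates 9 and 10 from B28. The stretched differentiated group at 1 h was made of replicates 4, 7, 8 and 9, and replicate 4 was the sole library of its experiment, B17. With 1 or 2 libraries per experiment and group, p-values measure the spread among these libraries, part of which may be technical. The time of day at collection and the time since the last change of medium are not given in the sources used here. The labels list the molecule as nuclear RNA, whereas the methods describe extraction from washed cells with a column kit and a stranded mRNA library.

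The libraries held between 48447318 and 77080730 counts. The stages could be told apart by their markers, since Ckm lay between 0 and 0.223 CPM in myoblasts (counts per 1000000 counts of a library), whereas differentiated cells had between 245.8 and 370.9 CPM. Mki67, a proliferation marker, still reached 70.0 to 226 CPM in differentiated cells, against 444 to 707 CPM in myoblasts. The macrophage marker Adgre1 had 0 counts in all 48 libraries.

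The clock of mammalian cells is a loop in which the activators CLOCK and BMAL1 bind E-box sequences and switch on Per and Cry genes, whose proteins then repress those activators. A linked loop runs through the nuclear receptors encoded by Nr1d1 and Nr1d2, which repress Arntl, the gene of BMAL1, through sites shared with ROR receptors. DBP, a clock-controlled activator, and NFIL3, a repressor, compete for D-box sequences, and BHLHE40 competes for E-boxes. Cultured cells, muscle cells among them, carry this loop, and serum, glucocorticoids and temperature can reset it.

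Start regions of clock genes are where such sequences are often found, and parts of them are shown for Per3, Cry1, Cry2 and Nr1d1. All 10 members passed the test in some stretch comparison below, so passing does not set these 4 apart. RefSeq start-region windows on GRCm38.p6, from 250 bases before to 50 bases after a start, matched 8 of the 10 members, with 2 starts for Per1 and 9 windows in all. E-box CACGTG, E′-box CACGTT, D-box TTANGTAA, RORE core TAGGTCA and CRE core TGACGT were searched on both strands. The E-box and the E′-box differ in their last letter. Among 32851 windows these letters occurred in 7.15%, 4.68%, 2.32%, 2.61% and 7.51%. In the stretches below, written on the strand of the gene, capitals mark the matches. They are D-boxes in Per3 (chr4:151044794-151044892, minus strand), an E′-box read on the other strand followed by an E-box in Cry1 (chr10:85185087-85185155, minus strand), and single E′-boxes read on the other strand in Cry2 (chr2:92434208-92434257, minus strand) and Nr1d1 (chr11:98775378-98775427, minus strand).
Per3: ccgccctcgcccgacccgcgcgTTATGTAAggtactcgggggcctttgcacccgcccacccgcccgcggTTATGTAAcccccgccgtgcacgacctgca
Cry1: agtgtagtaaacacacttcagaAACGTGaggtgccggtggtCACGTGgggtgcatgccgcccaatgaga
Cry2: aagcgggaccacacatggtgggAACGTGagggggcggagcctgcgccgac
Nr1d1: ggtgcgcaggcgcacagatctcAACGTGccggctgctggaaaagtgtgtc

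These 4 stretches lie outside the annotated bounds of their genes, upstream of them, and hold none of their exon bases. The Per3 D-boxes start 205 and 158 bases before the start, and the Cry1 matches 79 and 60 bases before it. The Per1 windows held an E-box and a CRE core, Nfil3 held a RORE core 12 bases before its start, and the Nr1d2 and Dbp windows held none of the 5 motifs. A match is a description of letters and not a site shown to be bound.

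In the 60 comparisons of a member between stretched and non-stretched cells of the same time point, 31 passed an adjusted p-value of 0.05, 15 of them higher and 16 lower in stretched cells. Adjusted p-values here and below come from the quasi-likelihood test of edgeR, adjusted after Benjamini and Hochberg over all genes tested. Only Bhlhe40 in myoblasts at 3 h and Dbp in myoblasts at 6 h also reached a log2 fold change of 0.58 in either direction, a size that 1.25%, 1.71% and 2.17% of all genes passed with in myoblasts after 1, 3 and 6 h and 0.27%, 1.63% and 2.04% in differentiated cells. In bulk RNA, a change in the cells that carry a transcript and a change in the RNA per cell cannot be told apart. All 31 had the same direction in both experiments of their stage. The fold changes came from the libraries of these same experiments, so this is no separate test. The share over all genes was not computed.

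In myoblasts, 2 of 10 members passed at 1 h, where 5.92% of all genes tested did, 7 of 10 at 3 h against 31.9%, and 6 of 10 at 6 h against 27.2%. In differentiated cells, 0 of 10 passed at 1 h against 0.663%, 9 of 10 at 3 h against 22.2%, and 7 of 10 at 6 h against 22.3%. As the members were chosen with earlier results of these data known, these counts describe them and test no excess. At 1 h in differentiated cells, 4 members had an unadjusted p under 0.05, as did 1386 of 15538 genes, and DESeq2 passed 3 members and 2.11% of genes. The 4 stretched libraries lay wholly apart from the 4 non-stretched libraries for 3, 7 and 6 members in myoblasts after 1, 3 and 6 h, where 13.5%, 31% and 29.3% of all genes did. The same held for 4, 9 and 6 members in differentiated cells, where 6.44%, 26.1% and 26.4% of all genes did. Taken by direction, 1.67%, 16% and 14.1% of all genes were higher and 4.24%, 15.8% and 13% lower in stretched myoblasts. In stretched differentiated cells 0.193%, 10.8% and 11.5% were higher and 0.47%, 11.4% and 10.8% lower. The median log2 fold change over all genes lay between -0.00745 and 0.00242, and that over the 10 members was 0.02, 0.07 and -0.16 in myoblasts and -0.03, 0.04 and -0.15 in differentiated cells.

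**Figure D1:**
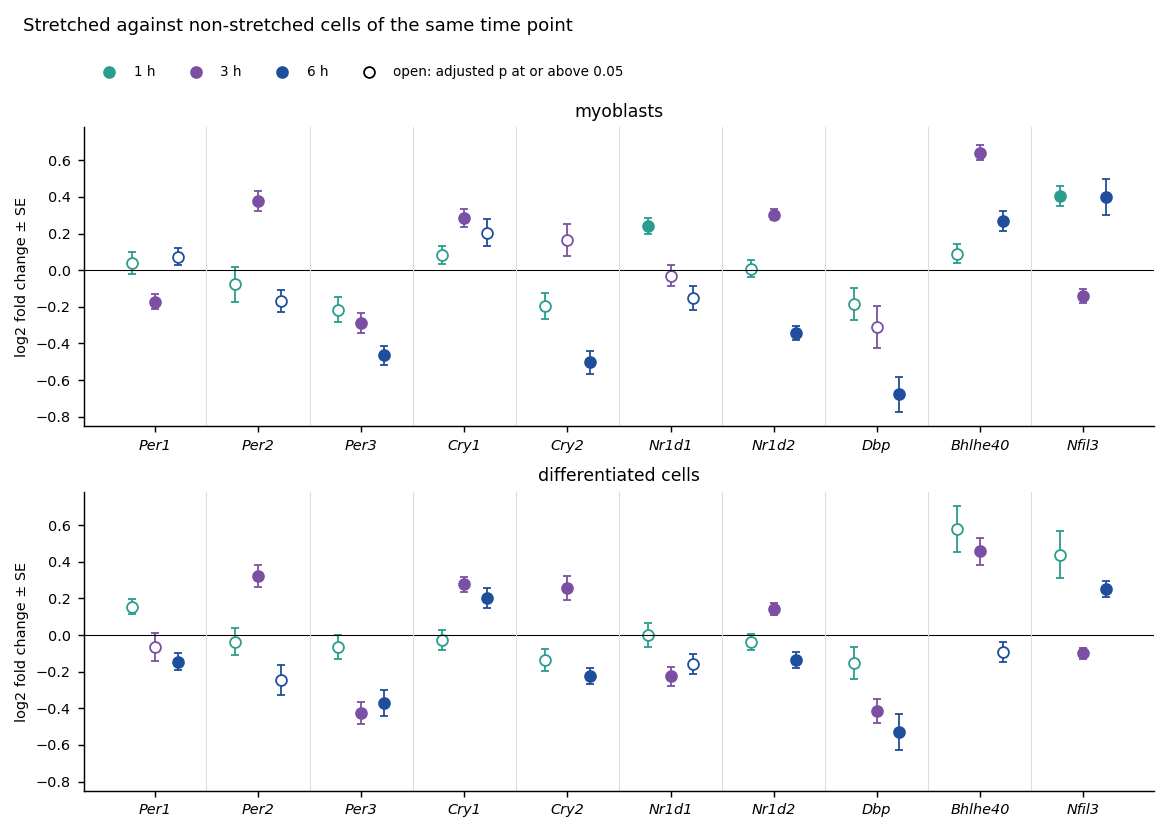
Log2 fold change (± SE) of each clock gene in stretched against non-stretched cells of the same time point (green for 1 h, purple for 3 h, blue for 6 h), in myoblasts (top) and differentiated cells (bottom), 4 libraries a group. Filled points passed an adjusted p of 0.05. Per2, Cry1, Nr1d2 and Bhlhe40 have filled points above 0 at 3 h in both stages. Per3, Cry2, Nr1d2 and Dbp have filled points below 0 at 6 h in both.

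Per3, a period gene, was lower in stretched cells at 3 h and 6 h in both stages. In myoblasts at 6 h, the non-stretched libraries had 12.4, 11.3, 11.4 and 11.1 CPM and the stretched libraries 8.44, 8.47, 8.12 and 8.43 CPM. The stretched libraries were close together and all lay below the non-stretched ones. Per3 fell by 0.46 on the log2 scale (SE 0.05, adjusted p = 0.00018), and by 0.49 in B27 and 0.44 in B31 taken alone. In differentiated cells at 6 h the non-stretched libraries had 17.6, 15.9, 18.3 and 18.4 CPM and the stretched libraries 12.4, 12.7, 15.04 and 14.1 CPM, again without overlap. The log2 fold change was -0.37 ± 0.07 (SE, adjusted p = 0.00478). At 3 h it was -0.29 ± 0.06 in myoblasts (adjusted p = 0.00186) and -0.43 ± 0.06 in differentiated cells (adjusted p = 0.00106), and the groups did not overlap in either. At 1 h the log2 values of -0.22 and -0.07 did not pass (adjusted p = 0.106 and 0.901).

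Per2, a period gene that answers both to the clock and to inputs from outside the cell, was higher after 3 h of stretching in both stages. Non-stretched myoblasts at 3 h had 5.95, 5.92, 5.92 and 6.14 CPM and stretched myoblasts had 7.75, 7.52, 7.76 and 7.94 CPM. Every stretched library was above every non-stretched library. Per2 rose 1.3-fold in myoblasts (log2 fold change 0.38 ± 0.05, adjusted p = 0.000188) and 1.25-fold in differentiated cells (0.32 ± 0.06, adjusted p = 0.00412). At 6 h its values were below the non-stretched cells and did not pass, at -0.17 ± 0.06 in myoblasts (adjusted p = 0.0572) and -0.25 ± 0.08 in differentiated cells (adjusted p = 0.0582). In differentiated cells at 6 h the stretched libraries had 13.3, 10.2, 11.04 and 10.01 CPM against 12.97, 12.8, 13.8 and 13.3 CPM, and replicate 7 was the stretched library that overlapped the non-stretched ones. Without that library the log2 fold change was -0.34 (adjusted p = 0.00676). With all libraries it passed by DESeq2 (0.0276) and in the model of 24 libraries (0.0252), and the value in myoblasts passed with the experiment as a covariate (0.0385). The change of the stretch effect from one time to another was tested as an interaction, which passed for 5, 5 and 6 members in myoblasts (6 h against 1 h, 3 h against 1 h, 6 h against 3 h), where 21.1%, 10.9% and 26.5% of all genes did, and for 5, 4 and 4 members in differentiated cells, where 11.9%, 5.15% and 12% did. For Per2 the effect at 6 h was lower than that at 3 h by 0.54 and 0.57 on the log2 scale (adjusted p = 0.000294 and 0.00154).

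Per1, a period gene with a rapid response to cyclic AMP and glucocorticoids in many cells, passed in fewer comparisons than Per3. Stretched myoblasts at 3 h had 25.3, 25.5, 24.7 and 23.3 CPM against 26.3, 27.99, 28.1 and 29.7 CPM, and the groups did not overlap. Per1 was lower there (-0.17 ± 0.04, adjusted p = 0.00713) and in differentiated cells at 6 h (-0.14 ± 0.04, adjusted p = 0.0391). The latter call passed in 2 of the 8 fits that left out 1 library, those without non-stretched replicate 9 or stretched replicate 9 (adjusted p up to 0.0998 in the others), and not in a fit blocked on the replicate number (adjusted p = 0.0882). At 1 h in differentiated cells all 4 stretched libraries, at 38.5, 37.6, 37.4 and 36.6 CPM, exceeded the non-stretched 32.4, 34.04, 33.2 and 34.99 CPM, with an adjusted p of 0.164.

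The cryptochromes, which repress the activators together with the PER proteins, went in opposite directions at 6 h in differentiated cells. Cry1 rose at 3 h in both stages, with stretched myoblasts at 21.1, 20.4, 22.5 and 21.9 CPM against 17.4, 16.3, 18.96 and 18.2 CPM. The log2 fold change was 0.28 ± 0.05 in myoblasts (adjusted p = 0.000708) and 0.28 ± 0.04 in differentiated cells (adjusted p = 0.00138), and the groups did not overlap in either stage. At 6 h Cry1 was still higher in differentiated cells (0.20 ± 0.05, adjusted p = 0.0215), although leaving out non-stretched replicate 7 or 8 gave adjusted p = 0.0557 and 0.0655, and blocking on the replicate number 0.0519. In myoblasts at 6 h its value of 0.21 ± 0.07 did not pass (adjusted p = 0.0567), and 5 of 7 alternative fits passed it, as did leaving out non-stretched replicate 9 (adjusted p = 0.0263) or stretched replicate 8 (adjusted p = 0.0366).

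Cry2 was lower at 6 h in both stages. Stretched myoblasts had 5.22, 5.73, 6.02 and 6.08 CPM and non-stretched myoblasts 8.23, 8.04, 8.405 and 8.02 CPM, a gap wider than the range of either group. Cry2 fell by 0.50 on the log2 scale in myoblasts (SE 0.06, adjusted p = 0.000322) and by 0.22 in differentiated cells (SE 0.04, adjusted p = 0.00442). The fall was smaller in differentiated cells by 0.27 on the log2 scale (adjusted p = 0.0278 for the difference between stages). That difference missed the threshold in the blocked fit (0.0639), and without non-stretched myoblast replicate 9, stretched myoblast replicate 7 or stretched differentiated replicate 10 (adjusted p up to 0.0567). At 3 h Cry2 rose in differentiated cells, from 25.1, 23.4, 25.2 and 22.9 CPM to 27.8, 26.8, 32.9 and 27.8 CPM, without overlap (0.26 ± 0.06, adjusted p = 0.0162), and its value in myoblasts was 0.16 ± 0.08 (adjusted p = 0.161). The effect at 6 h was lower than that at 3 h by 0.66 in myoblasts and 0.48 in differentiated cells on the log2 scale (adjusted p = 8.86e-05 and 0.000607).

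**Figure D2:**
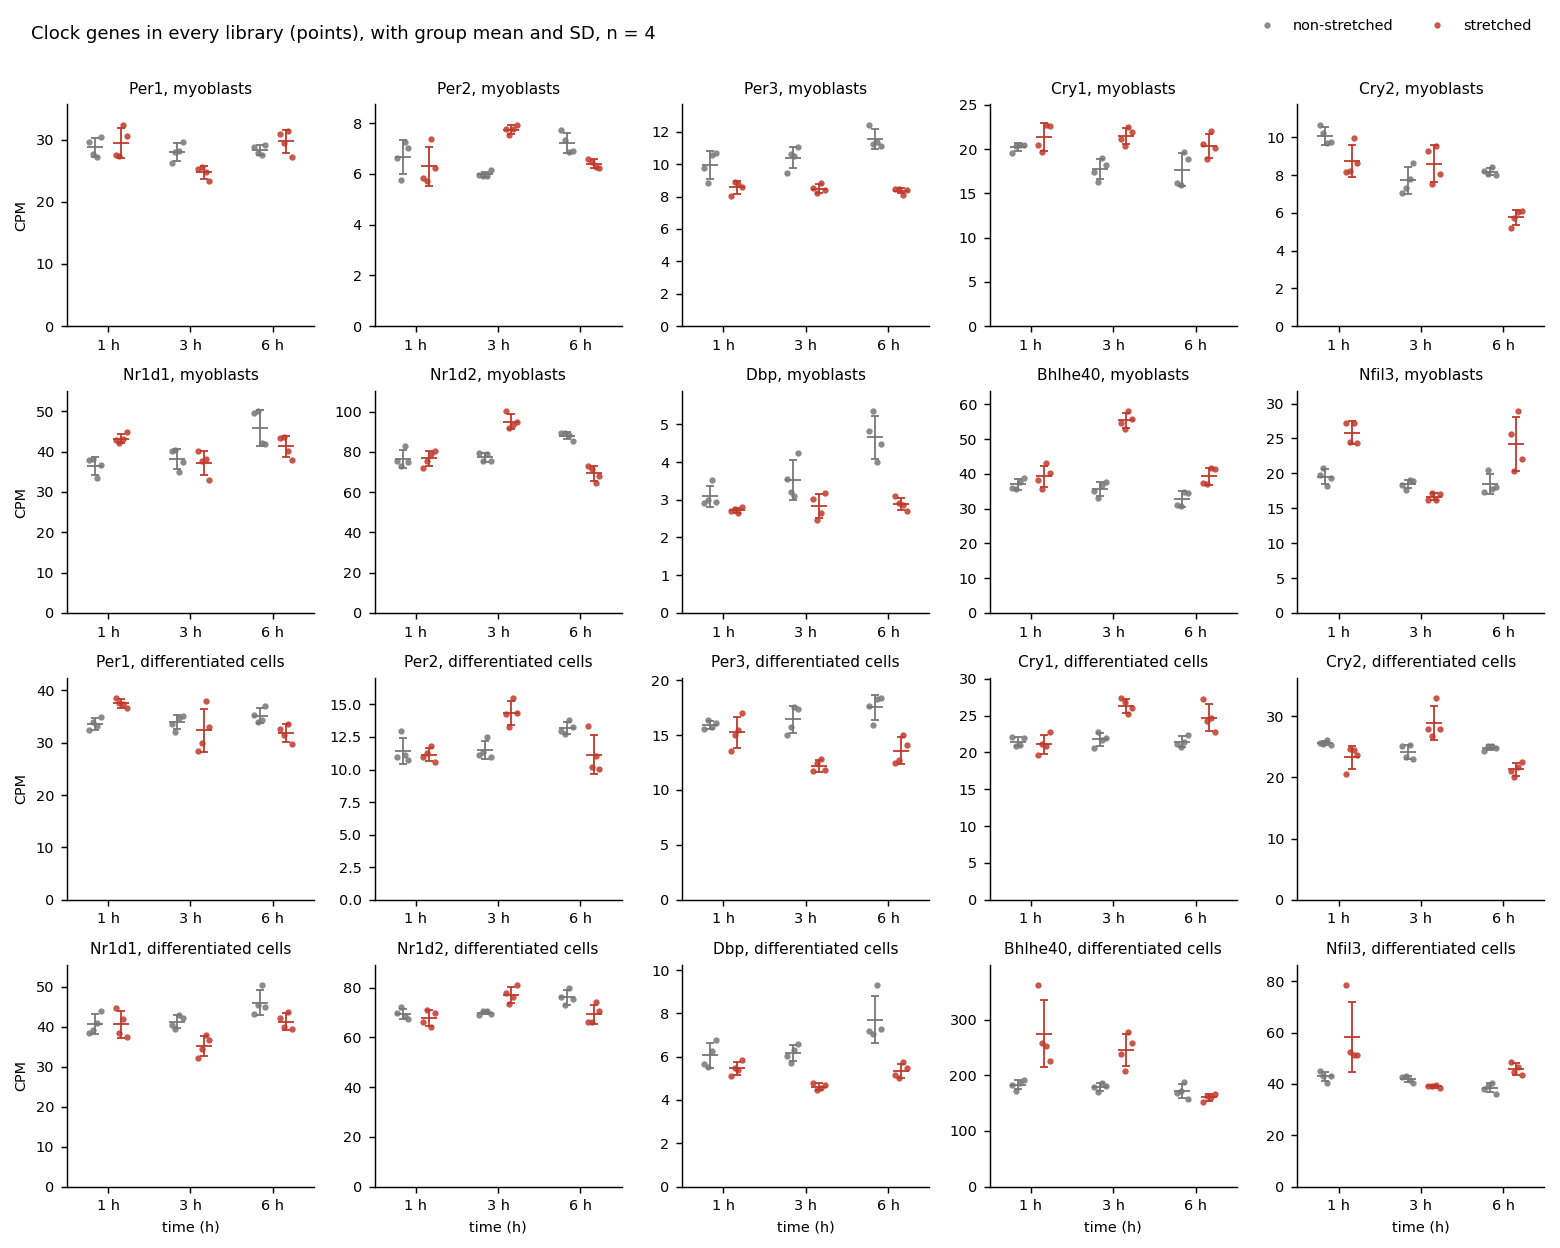
CPM of the 10 clock genes in every library (points) with the mean and SD of each group of 4, by time, for non-stretched (grey) and stretched (red) cells, in myoblasts (the upper rows) and differentiated cells (the lower rows). Each CPM axis starts at 0. In stretched myoblasts at 3 h Bhlhe40 reached 53.1 to 58.0 CPM, and in stretched differentiated cells at 1 h replicate 4 stands above the rest for Bhlhe40 (362 CPM) and Nfil3 (78.6 CPM).

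Nr1d2, the gene of the nuclear receptor REV-ERBβ, moved one way at 3 h and the other way at 6 h. In myoblasts at 3 h stretched libraries had 100.2, 91.7, 93.3 and 94.9 CPM and non-stretched libraries 79.7, 75.3, 78.8 and 75.7 CPM. At 6 h stretched libraries had 73.03, 71.7, 64.6 and 68.2 CPM and non-stretched libraries 89.3, 89.2, 88.4 and 85.7 CPM. The groups did not overlap at either time, with the stretched libraries above at 3 h and below at 6 h. The log2 fold changes were 0.30 ± 0.03 (adjusted p = 1.89e-05) and -0.34 ± 0.04 (adjusted p = 0.000185), and the effects differed by -0.64 (adjusted p = 7.71e-08). In differentiated cells the log2 fold changes were 0.14 ± 0.03 (adjusted p = 0.0107) and -0.14 ± 0.04 (adjusted p = 0.0489) with a difference of -0.28 (adjusted p = 0.00272). The call at 6 h in differentiated cells was lost on leaving out any library but stretched replicate 9 (adjusted p up to 0.13). Of the 31-base stretches of Nr1d2, 9.51% also occur in other genes, so its counts depend in part on how shared reads were divided.

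Nr1d1, which encodes REV-ERBα, passed at 1 h in myoblasts and at 3 h in differentiated cells. Its log2 value was -0.0005 ± 0.07 in differentiated cells at 1 h (adjusted p = 0.999). In myoblasts at 3 h it was -0.03 ± 0.06 (adjusted p = 0.74). The difference between stages did not pass at 1 h or 3 h (adjusted p = 0.893 and 0.311). At 1 h stretched myoblasts had 42.8, 42.2, 43.1 and 44.8 CPM against 38.02, 38.2, 33.4 and 36.6 CPM, with no overlap, and it rose 1.18-fold (0.24 ± 0.04, adjusted p = 0.00745). At 3 h it was lower in differentiated cells (-0.23 ± 0.05, adjusted p = 0.0108), where stretched libraries had 32.2, 34.3, 37.9 and 36.7 CPM against 40.5, 39.4, 42.99 and 42.2 CPM, without overlap. At 6 h the log2 values of -0.15 ± 0.07 in myoblasts and -0.16 ± 0.05 in differentiated cells did not pass (adjusted p = 0.114 and 0.0546). They passed with the experiment as a covariate (adjusted p = 0.00657 and 0.0497) and in the blocked fit (adjusted p = 0.013 and 0.0407), and in differentiated cells without non-stretched replicate 7 (0.0405) or stretched replicate 9 (0.0445). Nr1d1 shares 8.55% of its exon bases with Thra on the other strand, and the strand setting of the counting is not given in the sources used here.

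Dbp, the clock output gene whose protein activates D-box genes, had the largest fall of the members. In myoblasts at 6 h the non-stretched libraries had 4.81, 5.34, 4.0 and 4.47 CPM and the stretched libraries 3.09, 2.92, 2.87 and 2.71 CPM. The stretched libraries were close together and all lay below the lowest non-stretched library. Dbp fell to 0.625 of its non-stretched level (log2 fold change -0.68 ± 0.10, adjusted p = 0.000669), by 0.75 on the log2 scale in B27 and 0.60 in B31. In differentiated cells at 6 h the non-stretched libraries had 7.197, 7.04, 9.31 and 7.27 CPM and the stretched libraries 5.16, 5.02, 5.74 and 5.48 CPM, also without overlap (-0.53 ± 0.10, adjusted p = 0.00441). At 3 h Dbp was lower in differentiated cells (-0.42 ± 0.07, adjusted p = 0.00188), whereas its value of -0.31 ± 0.12 in myoblasts did not pass (adjusted p = 0.0595). That myoblast value passed without non-stretched replicate 9 (adjusted p = 0.0384), without stretched replicate 10 (0.0435), and in the blocked fit (0.0227). Dbp had between 130 and 304 counts per library in myoblasts, the fewest of the members, and 18% of its exon bases overlap Sphk2 on the other strand.

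Bhlhe40, which encodes the E-box repressor DEC1 and also responds to hypoxia and serum, had the largest rise. In myoblasts at 3 h the non-stretched libraries had 35.1, 33.03, 36.9 and 37.7 CPM and the stretched libraries 54.7, 53.1, 58.0 and 55.7 CPM. The stretched libraries stood far above the non-stretched ones, with a gap wider than the range of either group. Bhlhe40 rose 1.56-fold (0.64 ± 0.04, adjusted p = 7.92e-07), by 0.66 on the log2 scale in B27 and 0.61 in B31. It was still 1.205-fold higher at 6 h (0.27 ± 0.06, adjusted p = 0.00469). In myoblasts at 1 h its value was 0.09 ± 0.05 (adjusted p = 0.401).

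At 1 h in differentiated cells, Bhlhe40 in stretched libraries 4, 7, 8 and 9 had 362, 258, 253 and 225 CPM, against 183, 172, 187 and 192 CPM. The groups did not overlap, yet the spread among the stretched libraries was wide and the log2 fold change of 0.58 ± 0.13 did not pass (adjusted p = 0.0831). Without stretched replicate 4 it was 0.42 (adjusted p = 0.0104), and without stretched replicate 9 it was 0.67 (adjusted p = 0.0349). It passed in 5 of 7 alternatives that kept all libraries, by DESeq2 (0.000617), with no filter on low counts (0.031), in the model of 24 libraries (0.000859), with the experiment as a covariate (0.0061) and in the blocked fit (0.0181). In the last 2 of these replicate 4, which has no non-stretched counterpart, carried no weight, and the log2 fold changes were 0.41 and 0.44. The summed CPM of the proliferation markers Mki67, Top2a and Ccnb1 was 511 in replicate 4 and between 252 and 295 in the other stretched libraries of that group, and its part in the result was not tested. At 3 h the stretched libraries had 238, 209, 277 and 257 CPM against 178, 169, 186 and 181 CPM, again apart (0.46 ± 0.07, adjusted p = 0.00185). At 6 h the value was -0.09 ± 0.05 (adjusted p = 0.239), and this effect was lower than that in myoblasts by 0.37 on the log2 scale (adjusted p = 0.0176 for the difference). The difference between stages missed the threshold without non-stretched myoblast replicate 7 or stretched myoblast replicate 9 (adjusted p up to 0.0522).

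Nfil3, whose protein represses D-box genes, was higher in stretched myoblasts at 1 h and 6 h and slightly lower at 3 h. Stretched myoblasts at 1 h had 27.2, 24.5, 27.3 and 24.4 CPM against 19.8, 20.7, 18.2 and 19.4 CPM, without overlap, a 1.32-fold rise (0.40 ± 0.05, adjusted p = 0.00109). At 3 h they had 16.2, 17.2, 16.2 and 17.1 CPM against 18.3, 17.7, 19.02 and 18.9 CPM, and every stretched library was below every non-stretched one (-0.14 ± 0.04, adjusted p = 0.017). At 6 h they had 25.7, 20.3, 28.9 and 22.01 CPM against 17.3, 20.5, 17.8 and 18.1 CPM (0.40 ± 0.10, adjusted p = 0.0113), with overlap because stretched replicate 8 was lower than the highest non-stretched library. The effect of stretching differed by -0.55 between 3 h and 1 h and by 0.54 between 6 h and 3 h (adjusted p = 0.00128 and 0.000596).

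In differentiated cells Nfil3 rose at 6 h, from 38.1, 39.3, 40.2 and 36.2 CPM to 48.7, 44.6, 46.6 and 43.6 CPM (0.25 ± 0.04, adjusted p = 0.00356). At 1 h stretched libraries 4, 7, 8 and 9 had 78.6, 52.3, 51.3 and 51.1 CPM against 44.9, 43.03, 40.5 and 43.3 CPM, and all were above the non-stretched ones. The log2 fold change of 0.44 ± 0.13 did not pass (adjusted p = 0.226), and without replicate 4 it was 0.26 and passed (adjusted p = 0.0211). It also passed by DESeq2 (0.0402), in the model of 24 libraries (0.00451), with the experiment as a covariate (0.0089) and in the blocked fit (0.0357). The small decreases at 3 h depended on single libraries and on the model. In myoblasts the call was lost with all 24 libraries of the stage in a single model (adjusted p = 0.179), without non-stretched replicate 10 (0.0543) and without stretched replicate 9 (0.0505). In differentiated cells (-0.10 ± 0.03, adjusted p = 0.0357) it was lost on leaving out any library but non-stretched replicate 10 (adjusted p up to 0.103) and in the single model (adjusted p = 0.508).

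Where a member passed in both stages its direction was shared. At 3 h the 6 members that passed in both stages, Per2, Per3, Cry1, Nr1d2, Bhlhe40 and Nfil3, had the same direction in each, as did 98.5% of the 2259 genes that passed in both. At 6 h the 5 such members, Per3, Cry2, Nr1d2, Dbp and Nfil3, again agreed in direction, as did 96.4% of 1630 genes. A difference in the effect of stretching between stages was tested for every gene and passed for 0 members at 1 h, where 0% of genes passed, for 0 at 3 h, where 1.79% did, and for 3 at 6 h, where 5.18% did. At 1 h, 705 genes had an unadjusted p under 0.05, with Nr1d1 and Bhlhe40 among them, and DESeq2 passed 16 genes. At 3 h, 3 members had an unadjusted p under 0.05, Nr1d1, Nr1d2 and Bhlhe40, as did 2189 of 16252 genes. Besides Cry2 and Bhlhe40, the 3 members at 6 h included Per1, whose effect was 0.07 in myoblasts and -0.14 in differentiated cells (difference -0.23, adjusted p = 0.0475). The Per1 difference passed in 2 of 16 fits that left out 1 library (adjusted p up to 0.131 in the others), and did not pass with the experiment as a covariate (0.0547) or in the blocked fit (0.112).

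Levels of the stages in non-stretched cells at 1 h are given side by side with no test, since each table was scaled on its own. Bhlhe40 had 37.02 ± 1.58 CPM (mean ± SD, n = 4) in myoblasts, whereas differentiated cells had 183 ± 8.22 CPM, and Cry2 had 10.1 ± 0.465 and 25.6 ± 0.372 CPM. Nfil3 had 19.5 ± 1.07 and 42.9 ± 1.81 CPM and Dbp 3.09 ± 0.283 and 6.05 ± 0.566 CPM. Nr1d1, Cry1 and Per1 were closer, with means of 36.5 and 40.6, 20.2 and 21.4, and 28.7 and 33.7 CPM, and Nr1d2 had 76.5 ± 4.33 and 69.4 ± 2.12 CPM. Per2 had 6.67 ± 0.6603 and 11.4 ± 1.02 CPM and Per3 9.97 ± 0.866 and 15.9 ± 0.356 CPM.

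The non-stretched cells were then compared over time to see how these genes moved without stretching. In myoblasts, 1 of 10 members differed between 3 h and 1 h, where 2.52% of all genes did, and 4 of 10 between 6 h and 1 h, where 1.99% did. With the experiment as a covariate and in the blocked fit 2 members passed at 3 h (5.39% and 8.12% of genes) and 6 at 6 h (4.54% and 6.67%). Dbp was the member that moved most, from 2.92, 2.99, 3.52 and 2.95 CPM at 1 h to 4.81, 5.34, 4.0 and 4.47 CPM at 6 h, with all libraries of 6 h above those of 1 h. It rose (0.58 ± 0.11 on the log2 scale, adjusted p = 0.0168), by 0.78 on the log2 scale in B27 and 0.39 in B31. Nr1d1 rose from 38.02, 38.2, 33.4 and 36.6 CPM to 49.6, 49.98, 42.2 and 41.98 CPM (0.33 ± 0.06, adjusted p = 0.02). Nr1d2 rose (0.20 ± 0.04, adjusted p = 0.0111), and Cry2 was lower at 3 h (-0.39 ± 0.06, adjusted p = 0.0101) and at 6 h (-0.30 ± 0.06, adjusted p = 0.0243). The members gained in those fits were Cry1, at -0.19 ± 0.06 at 3 h (adjusted p = 0.129, 0.0236 with the covariate and 0.0201 in the blocked fit) and -0.19 ± 0.06 at 6 h (0.133, 0.019 and 0.0177), and Bhlhe40, at -0.18 ± 0.05 at 6 h (0.0848, 0.00208 and 0.00156). By DESeq2 Bhlhe40 passed at 6 h as well (0.0324).

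Several of these calls depended on single libraries. Without non-stretched replicate 7 of 6 h, 0 of the 4 members passed at 6 h, with adjusted p between 0.0507 for Nr1d2 and 0.0682 for Nr1d1 and Cry2. Dbp was also lost without replicate 7 of 1 h (adjusted p = 0.0652) or replicate 8 of either time (0.0633 and 0.0686), and Nr1d1 without replicate 8 of 6 h (0.0676). Cry2 at 6 h was also lost without replicates 7 or 8 of 1 h or 8 or 10 of 6 h (adjusted p up to 0.0836), and at 3 h without replicate 7 of 1 h (0.0531). In the 5 other fits that kept all libraries, Dbp had adjusted p between 0.000138 and 0.0167.

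In differentiated cells, 0 of 10 members differed between 3 h and 1 h, where 0% of 15813 genes did. There 897 genes and 1 member, Cry2, had an unadjusted p under 0.05, and DESeq2 passed 26 genes and 0 members. Between 6 h and 1 h, 0 of 10 members passed, where 1.22% of genes did, although 6 members had an unadjusted p under 0.05, as did 2249 of 15813 genes, and DESeq2 passed 4 members and 3.81% of genes. Those 4 were Dbp (0.34 ± 0.10, adjusted p = 0.109 by edgeR and 0.0219 by DESeq2), Nr1d1 (0.18 ± 0.05), Nr1d2 (0.13 ± 0.03) and Nfil3 (-0.16 ± 0.04). The experiment as a covariate passed the same 4 and the blocked fit 3 of them, without Nr1d2, where 4.71% and 2.82% of genes passed. Dbp had 5.66, 5.54, 6.25 and 6.77 CPM at 1 h and 7.197, 7.04, 9.31 and 7.27 CPM at 6 h, and every library of 6 h was above those of 1 h.

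**Figure D3:**
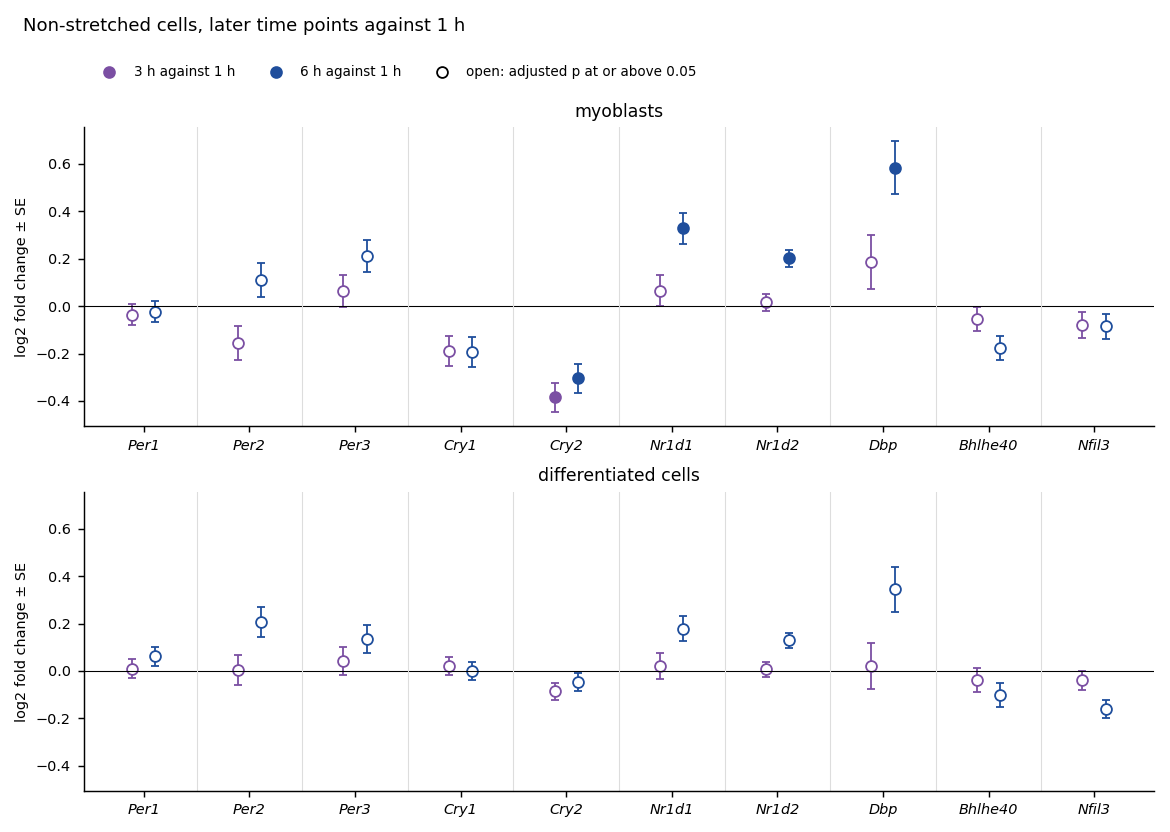
Log2 fold change (± SE) of each clock gene in non-stretched cells at 3 h and 6 h against 1 h, in myoblasts (top) and differentiated cells (bottom), 4 libraries a group. Filled points passed an adjusted p of 0.05. Dbp at 6 h is the highest point in each stage, at 0.58 and 0.34, and the latter did not pass.

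The means over time can be set side by side. For Dbp, stretched myoblasts had 2.72 ± 0.0671, 2.83 ± 0.323 and 2.898 ± 0.159 CPM after 1, 3 and 6 h, against 3.09 ± 0.283, 3.52 ± 0.522 and 4.66 ± 0.566 CPM in non-stretched myoblasts (mean ± SD, n = 4). Per3 had 8.57 ± 0.384, 8.49 ± 0.265 and 8.37 ± 0.162 CPM in stretched and 9.97 ± 0.866, 10.4 ± 0.665 and 11.6 ± 0.602 CPM in non-stretched myoblasts. The effect of stretching at 6 h was lower than at 1 h for Dbp by 0.50 in myoblasts and 0.38 in differentiated cells on the log2 scale (adjusted p = 0.0157 and 0.04), and for Per3 by 0.25 and 0.31 (adjusted p = 0.0309 and 0.0407). The myoblast Dbp difference passed in every fit that left out 1 library, and the others passed in 11 to 16 of the 24 (adjusted p up to 0.0954).

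Per3 and Dbp also followed each other among the libraries. Over the 24 libraries of a stage, Pearson's r of log2 CPM between them was 0.814 in myoblasts and 0.851 in differentiated cells. These libraries share groups, experiments and scaling, so r carries the differences between groups and is given as a description. Among 10473 genes in differentiated cells, Per3 was the nearest to Dbp, followed by Fgf11 (0.850) and Plcg1 (0.839). Among 10130 genes in myoblasts, Per3 was second to Drp2 (0.868), before 1190002N15Rik (0.783).

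**Figure D4:**
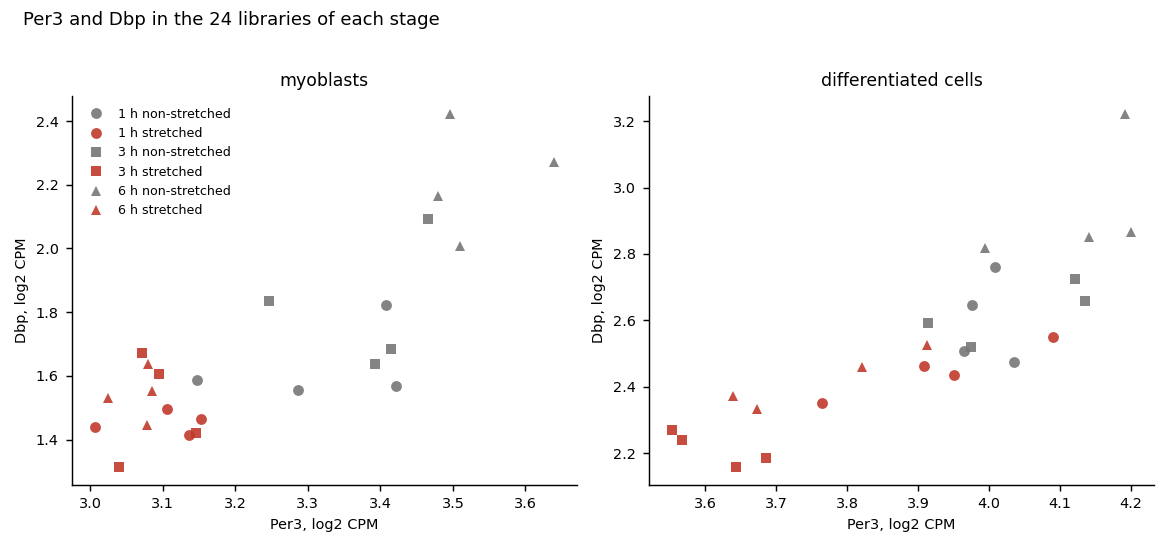
Dbp against Per3, both in log2 CPM, in the 24 libraries of myoblasts (left) and differentiated cells (right), with shape for time and colour for stretching. Stretched libraries of 3 h and 6 h lie below the non-stretched libraries of 6 h for both genes. Pearson's r was 0.814 and 0.851.

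The nearest genes of 3 other members were found in the same way. Bhlhe40 was nearest to Wwtr1 (r = 0.944), Gadd45g (0.922) and Klhl21 (0.915) in myoblasts and to Rnf19b (0.968), Errfi1 (0.953) and Ctgf (0.953) in differentiated cells. Nr1d1 was nearest to Vangl1 (0.787), 2610507B11Rik (0.785) and Crat (0.758) in myoblasts and to Pde4a (0.799), Dbp (0.775) and Rnpep (0.771) in differentiated cells. Per1 was nearest to Pla2g6 (0.884), Gys1 (0.856) and Fam214b (0.854) in myoblasts and to Hes1 (0.781), Emilin2 (0.766) and Zfp36l1 (0.749) in differentiated cells. Per2 and Nr1d2, whose log2 fold changes were positive at 3 h and negative at 6 h, had r of 0.760 in myoblasts and 0.695 in differentiated cells. Such a shared turn enters r. Cry2 also turned, and in myoblasts its r was 0.256 with Per2 and 0.395 with Nr1d2. In differentiated cells these were 0.662 and 0.572.

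A list of 22 other genes of the clock was counted beside the members. In myoblasts 1, 10 and 4 of them were higher and 0, 4 and 4 lower after 1, 3 and 6 h of stretching, and in differentiated cells 0, 7 and 5 were higher and 0, 3 and 2 lower. Its median log2 fold change lay between -0.01 and 0.08, against medians near 0 for all genes. Among those past a log2 fold change of 0.58 was Usp2, a clock-controlled deubiquitinase gene (-0.60 ± 0.16, adjusted p = 0.012), in myoblasts at 3 h. Hlf, a relative of Dbp, was past it in myoblasts at 6 h (0.80 ± 0.20, adjusted p = 0.0137). In differentiated cells at 3 h Ciart, a clock repressor gene, was higher (0.87 ± 0.15, adjusted p = 0.0026) and Arntl2, a relative of Arntl, lower (-0.61 ± 0.13, adjusted p = 0.00727). In myoblasts Hlf had 13 to 29 counts in the libraries of 6 h, so it is measured with low precision.

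Over time in non-stretched cells, 0 of the 22 were higher and 1 lower at 3 h and 0 higher and 2 lower at 6 h in myoblasts, and 0 and 0 at 3 h and 1 and 1 at 6 h in differentiated cells.

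Genes through which outside signals reach the clock were counted beside these. Of 13 input genes that carry or answer serum and cyclic AMP signals, 6 were higher at 1 h in myoblasts and 2 in differentiated cells. None was lower. Fos rose 4.46-fold and 6.78-fold (log2 fold change 2.16 ± 0.11 and 2.76 ± 0.45, adjusted p = 1.51e-06 and 0.0302) and Dusp1 1.97-fold and 1.94-fold. Stretched differentiated libraries at 1 h had 19.9 to 86.8 CPM of Fos, a wide spread, against 5.42 to 6.80 CPM in non-stretched ones. No gene passed the test of a difference between stages at 1 h. Egr1 (1.40 ± 0.03) and Nr4a1 (1.08 ± 0.08) passed in myoblasts at 1 h, and Egr1 was lower there at 3 h (-0.63 ± 0.05). Neither gene passed in differentiated cells at 1 h, although their groups did not overlap. Egr1 had 378 to 948 CPM in those stretched libraries and 199.9 to 214 CPM in the non-stretched ones. Nr4a1 had 46.3 to 177 CPM and 20.4 to 22.3 CPM. In stretched differentiated cells at 1 h, the highest CPM of Fos, Dusp1, Egr1 and Nr4a1 came from replicate 4. That library, the sole one of experiment B17, has no non-stretched counterpart. At 3 h 3 of the 13 were higher and 4 lower in myoblasts, and 2 higher and 1 lower in differentiated cells. At 6 h these counts were 0 and 2 in myoblasts and 1 and 5 in differentiated cells. In non-stretched myoblasts 1 was higher at 3 h, and the other comparisons of non-stretched cells had 0.

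The 8 temperature genes were heat shock genes together with the cold-inducible Cirbp and Rbm3, so their counts and median mix both kinds. In myoblasts 1, 4 and 6 were higher and 0, 0 and 1 lower after 1, 3 and 6 h. In differentiated cells 0, 2 and 5 were higher and 0 lower. At 6 h 14.1% of all genes were higher and 13% lower in myoblasts, and 11.5% and 10.8% in differentiated cells. The median log2 fold change of the 8 genes at 6 h was 0.49 in myoblasts and 0.55 in differentiated cells. Hsph1 (1.03 ± 0.19 and 0.89 ± 0.17), Hspa1b (1.26 ± 0.26 and 0.94 ± 0.22) and Dnajb1 (0.59 ± 0.12 and 0.70 ± 0.12) passed in both stages, with Hspa1a in myoblasts (0.58 ± 0.13) and Hsp90aa1 in differentiated cells (0.59 ± 0.10). Whether these genes moved with Dbp, Per3 or Cry2 for a shared reason was not tested.

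Of 8 glucocorticoid target genes, 7 were tested, and 1, 2 and 2 were higher and 0, 0 and 2 lower in myoblasts and 1, 2 and 1 higher and 0, 0 and 2 lower in differentiated cells at the 3 times. Sgk1 was higher at 1 h in both stages (0.91 ± 0.06 and 1.48 ± 0.20) and Errfi1 at 3 h in differentiated cells (0.74 ± 0.10). Stretched differentiated libraries at 1 h had 108.6 to 206.3 CPM of Sgk1, with the highest value in replicate 4. Of 10 hypoxia genes, 1, 3 and 4 were higher and 0, 4 and 0 lower in myoblasts and 0, 4 and 4 higher in differentiated cells, with Ankrd37 past 0.58 at 6 h in differentiated cells (0.87 ± 0.13).

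Few markers of cell state passed. The 5 muscle markers tested in myoblasts had a median log2 fold change of -0.88 at 1 h, and 0 passed there, with Myog between 19 and 59 counts in stretched and 64 and 147 in non-stretched libraries. In myoblasts Myog, a differentiation gene, was lower in stretched cells at 3 h (-0.82 ± 0.23, adjusted p = 0.0167), and 1 muscle marker was lower at 6 h. Kdr, an endothelial marker, was higher at 6 h (1.26 ± 0.23, adjusted p = 0.00284) at 4 to 37 counts per myoblast library. In non-stretched myoblasts Acta1 was lower at 6 h than at 1 h (-0.80 ± 0.10, adjusted p = 0.00096). Of the 3 proliferation markers, 1 was higher and 1 lower at 3 h and 2 lower at 6 h in myoblasts, and 2 were higher at 3 h in differentiated cells. Adipocyte markers were too low to test, 1 macrophage marker was tested in differentiated cells and did not pass, and the part of these markers in the clock results was not tested.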

How the data were processed

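RNA of 48 C2C12 libraries was sequenced, 24 of myoblasts and 24 of differentiated cells. The deposited tables, 1 for each stage, held estimated counts per gene symbol, which the authors made by aligning reads to Ensembl mm10 with STAR and quantifying them with Salmon, and their own tests used DESeq2 (methods and processing notes). The strand setting of Salmon is not given in the sources used here. All deposited values were whole numbers.

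Here R 4.3.3 and edgeR 4.0.16 were used. Genes were kept by filterByExpr, libraries scaled by TMM, and the quasi-likelihood test applied to the whole table, with Benjamini-Hochberg adjustment over all genes tested. A result passed at an adjusted p under 0.05, and 0.58 was the log2 fold size, as in the study. Each stretch comparison used its 8 libraries, the time comparison the 12 non-stretched libraries of a stage, the interaction with time all 24 of a stage, and the interaction with stage the 16 of a time point in joined tables. CPM was computed on those scaled sizes, with a prior count of 1 added before log2 was taken. Alternatives were DESeq2 1.42.0 with its size factors, RLE scaling, other filters, the experiment as a covariate, the replicate block, a model of all 24 libraries of a stage, and each library left out in turn. Scripts were tested on simulated data with known changes.

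Among 72 pairs of replicates 0 held identical values, and their counts differed by more than sampling noise (chi-square per gene 2.742 to 187.7). Replicate numbers were shared by stretched and non-stretched libraries in 23 pairs. Deviations from the group means correlated over 0.1 in 1 of them (r from -0.0485 to 0.102), and the reported fits did not treat them as pairs. A correlation over all genes cannot show that the experiment has no effect. With the replicate block, genes past the adjusted p in non-stretched myoblasts at 3 h against 1 h went from 384 to 1235. The myoblast library titled with experiment B231 was taken as B31, as its column is. The members and gene lists were chosen with earlier results of these data known, and the interactions of 3 h against 1 h and 6 h against 3 h were added after seeing the data. All 10 members are named. Genes of other lists are given with a fold change only where they passed both limits in a stretch or time comparison. Ckm, Adgre1 and the proliferation markers are named for their levels alone. Likeness is Pearson's r of log2 CPM over 24 libraries among genes of at least 5 CPM on average. Gene bounds and overlaps are from GENCODE vM21, and start-region windows and motifs from RefSeq. One gene of the list of other clock genes was counted with its list and is not reported here by name.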

Additional observations from a re-analysis of the deposited data

Results flagged for a closer look

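In 7 of the 120 groups of 4 libraries tested, 1 library stood far from the other 3, where chance gives about 1 in 20 groups. In myoblasts these were Per2 in non-stretched replicate 10 at 3 h (6.14 CPM, others 5.92 to 5.95), Per3 in stretched replicate 9 at 6 h (8.12 CPM, others 8.43 to 8.47), Cry1 in non-stretched replicate 7 at 1 h (19.6 CPM, others 20.3 to 20.5) and Dbp in non-stretched replicate 9 at 1 h (3.52 CPM, others 2.92 to 2.99). In differentiated cells they were Per2 in non-stretched replicate 8 at 1 h (12.9 CPM, others 10.7 to 11.1), Dbp in non-stretched replicate 9 at 6 h (9.31 CPM, others 7.04 to 7.27) and Nfil3 in stretched replicate 4 at 1 h (78.6 CPM, others 51.1 to 52.3).

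The effect of stretching differed between time points or stages in 32 of 90 tests of a member, and 21 of the 32 passed in every fit that left out 1 library. Differences are on the log2 scale, later minus earlier time. In myoblasts from 1 h to 6 h they were -0.25 for Per3, -0.31 for Cry2, -0.40 for Nr1d1, -0.35 for Nr1d2 and -0.50 for Dbp (adjusted p = 0.0309, 0.0482, 0.00276, 0.000147 and 0.0157). The Cry2 difference passed in 7 of 24 fits that left out 1 library (adjusted p up to 0.14). From 1 h to 3 h they were 0.45 for Per2, 0.36 for Cry2, 0.29 for Nr1d2, 0.55 for Bhlhe40 and -0.55 for Nfil3 (adjusted p = 0.00433, 0.0332, 0.00174, 3.75e-05 and 0.00128). From 3 h to 6 h they were 0.25 for Per1, -0.54 for Per2, -0.66 for Cry2, -0.64 for Nr1d2, -0.37 for Bhlhe40 and 0.54 for Nfil3 (adjusted p = 0.0145, 0.000294, 8.86e-05, 7.71e-08, 0.00108 and 0.000596).

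In differentiated cells from 1 h to 6 h they were -0.30 for Per1, -0.31 for Per3, 0.23 for Cry1, -0.38 for Dbp and -0.67 for Bhlhe40 (adjusted p = 0.0247, 0.0407, 0.0403, 0.04 and 0.00324). The Cry1 difference passed in 13 of 24 fits that left out 1 library (adjusted p up to 0.101 in the others) and did not pass with the experiment as a covariate (0.0535) or in the blocked fit (0.0702). From 1 h to 3 h they were -0.36 for Per3, 0.30 for Cry1, 0.39 for Cry2 and -0.54 for Nfil3 (adjusted p = 0.0283, 0.0139, 0.00516 and 0.0128). From 3 h to 6 h they were -0.57 for Per2, -0.48 for Cry2, -0.28 for Nr1d2 and -0.55 for Bhlhe40 (adjusted p = 0.00154, 0.000607, 0.00272 and 0.013). Between stages at 6 h the effects differed, differentiated cells minus myoblasts, by -0.23 for Per1, 0.27 for Cry2 and -0.37 for Bhlhe40 (adjusted p = 0.0475, 0.0278 and 0.0176).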

How the results depend on the processing

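No member result that passed changed direction under any alternative run. Of the results of single members under stretching, 385 kept their call, 28 were gained and 7 lost over the alternatives that kept all libraries, and 443, 13 and 24 over those that left out 1. For non-stretched time these were 181, 18 and 0, and 467, 0 and 13.

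Without the fold limit, stretching passed 884, 4719 and 4060 genes in myoblasts at 1, 3 and 6 h (187, 253 and 324 with it) and 103, 3443 and 3438 in differentiated cells (42, 253 and 315). Non-stretched time passed 384 and 302 genes in myoblasts at 3 and 6 h (14 and 20 with it) and 193 in differentiated cells at 6 h (15). In differentiated cells at 1 h, the genes past both limits were 98 by DESeq2, 66 with the experiment as a covariate, 66 with no filter and 126 in the model of 24 libraries. Their share of higher genes was 33.3% in the reported fit, 44.9% by DESeq2, 45.5% with the covariate, 51.8% with the replicate block and 46.8% in the model of 24 libraries. Members passing there numbered 3, 2, 1 and 2 under those 4 alternatives and 2 with the replicate block, against 0.

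From here on, counts of genes are past both limits unless the adjusted p alone is named, and counts of members are past the adjusted p alone. For non-stretched myoblasts at 3 h DESeq2 gave 0 genes, the covariate 22, the replicate block 26 and no filter 22, and at the adjusted p alone 850, 820, 1235 and 451. The covariate and the block passed 2 members each there. At 6 h the covariate gave 40 genes and the block 45 (691 and 1015 at the adjusted p alone), with 6 members each. In differentiated cells at 6 h the covariate gave 30 genes and the block 24 (745 and 446 at the adjusted p alone), with 4 and 3 members, and DESeq2 passed 4 members. The change of the stretch effect from 1 h to 3 h in differentiated cells gave 219 genes with the covariate and 212 with the block against 138 (1746, 1560 and 838 at the adjusted p alone). The difference between stages at 1 h gave 7 genes by DESeq2, 22 with the covariate and 12 with the block against 0 (16, 51, 20 and 0 at the adjusted p alone). It passed for 1 member by DESeq2 at 3 h (0) and for 1 with the block at 6 h (3).

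Leaving out 1 library gave ranges of 123 to 197 genes for stretched myoblasts at 1 h and 211 to 385 at 6 h. It gave 9 to 87 genes and 0 to 2 members for differentiated cells at 1 h, and 4 to 8 members at 6 h. For non-stretched time in myoblasts the ranges were 2 to 32 genes and 0 to 1 members at 3 h and 7 to 48 genes and 0 to 4 members at 6 h, and in differentiated cells 0 to 58 genes at 6 h. The change of the stretch effect from 1 h to 6 h had 3 to 5 members in myoblasts and 1 to 5 in differentiated cells. The difference between stages had 0 to 3 genes at 1 h, 0 to 1 members at 3 h, and 65 to 133 genes and 1 to 3 members at 6 h.

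With 4 libraries a group, several calls near the threshold depend on single libraries. Low counts limit Dbp in myoblasts (130 to 304 per library).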
